A study of Mus musculus with 2 samples.

Results

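The 4 families of genes described here make and hold in check the enzymes that cut the extracellular matrix and shed proteins from cell surfaces: the matrix metalloproteases (MMPs), the ADAMs, the ADAMTSs and the tissue inhibitors of metalloproteases (TIMPs). Members were all genes on the array whose symbol starts with Mmp, Adam, Adamts or Timp followed directly by a digit. They came to 79 of 36998 gene names, 23 MMPs, 33 ADAMs, 19 ADAMTSs and 4 TIMPs, covered by 153 of 56605 probes.

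The values come from 2 single-colour arrays of 60-mer probes, 1 for each genotype. Both arrays carried striatal RNA of male mice that were 8 weeks old and were taken on day 1 after MPTP, given as 4 injections of 20 mg/kg spaced 2 h apart. MPTP is a toxin whose metabolite is taken up by dopaminergic neurons and damages their striatal terminals. WT and Cx30 KO, which lacks the astrocytic gap junction protein connexin 30, were compared, each as a single pool of RNA from 2 mice. The label for the WT mice is C57BL/6J and that for the Cx30 KO mice is Cx30-LacZ, while the study's methods describe WT controls bred from heterozygous Cx30 KO parents. Arrays of saline-treated mice were not used here, so each value sets Cx30 KO against WT after MPTP and none measures the response to MPTP. With 1 pool for each genotype there was no spread between mice and no test, and genotype, dissection and the mice of a pool cannot be told apart.

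MMPs, ADAMs and ADAMTSs share a zinc-dependent catalytic domain and are made as inactive precursors. Most MMPs and all ADAMTSs are secreted, whereas membrane-type MMPs and ADAMs sit in the cell membrane, and some ADAMs have lost catalytic activity and act as adhesion or receptor proteins. TIMPs bind the active site of MMPs, and TIMP3 also inhibits several ADAMs and ADAMTSs. In injured brain, astrocytes, microglia, oligodendrocytes and vessel cells all make members of these families.

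A gene is given by its processed signal, the background-subtracted brightness of its probe in arbitrary units, with the error that the scanner software assigned to it. This error covers the spot and not the mice. The log2 ratio is Cx30 KO minus WT after each array's 75th percentile, a signal of 401.2 for WT and of 381.8 for Cx30 KO, was subtracted on the log2 scale. Brightness depends on the probe, so differences in signal between genes are not read as differences in their levels. A gene counted as detected when a probe was well above background on at least 1 array, and the brightest such probe stood for it. The lowest signals so marked were 19.8 on the WT array and 17.4 on the Cx30 KO array, and some slightly brighter spots were not marked. Where a gene was detected on 1 array only, the dim side is a bound and the fold is given as at least that size. The study's criteria for a difference were a ratio of at least 1.5 with a Z-score of at least 2, or a ratio of at most 0.66 with a Z-score of at most −2. Here the Z-score places a log2 ratio among those of the 1000 probes nearest in mean signal, and meeting the criteria is no test. Different probes of a gene gave log2 ratios with a SD of 0.26 over 7147 genes. The log2 ratio of a single spot had a SD of 0.06. That value combines median spot SDs of 0.039 in WT and 0.041 in Cx30 KO. These medians were taken over 298 probes in WT and 299 in Cx30 KO that were each printed in 10 spots.

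Gjb6, which encodes connexin 30, had 1788 ± 179 in WT and 111 ± 11.6 in Cx30 KO, 15.4-fold lower, which fits the labels. The striatal neuron markers were detected in 8 of 8 cases with a median log2 ratio of −0.05 and a range from −0.34 to 0.23. Other cell types differed between the pools. All 7 oligodendrocyte markers were lower in Cx30 KO, with a median of −0.73 and signals that summed to 157109 in WT and to 93330 in Cx30 KO. All 8 microglia markers were lower as well, with a median of −0.53 and summed signals of 35271 and 24450. All 6 markers of cortical excitatory neurons were higher in Cx30 KO, where their signals summed to 1391 against 175 in WT, and 4 of them, Slc17a7 among these, were not well above background in WT. In pooled tissue, fewer cells of a type and less RNA per cell cannot be told apart. For microglia, the paper's immunostaining on day 1 after MPTP found no significant genotype difference in striatal cells positive for the microglia protein Iba1.

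Of the 79 members, 41 were detected, 38 on both arrays and 3 in Cx30 KO only. TIMPs were detected in 4 of 4 cases, ADAMTSs in 12 of 19, ADAMs in 15 of 33 and MMPs in 10 of 23. Across the 41, the median log2 ratio was −0.11, with 23 lower and 18 higher in Cx30 KO, and over all 22008 detected genes it was 0.03, with 9999 lower and 12009 higher. Of the 41 members 30, 73.2%, lay within 0.5 of 0, against 82.8% of all detected genes.

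**Figure D1:**
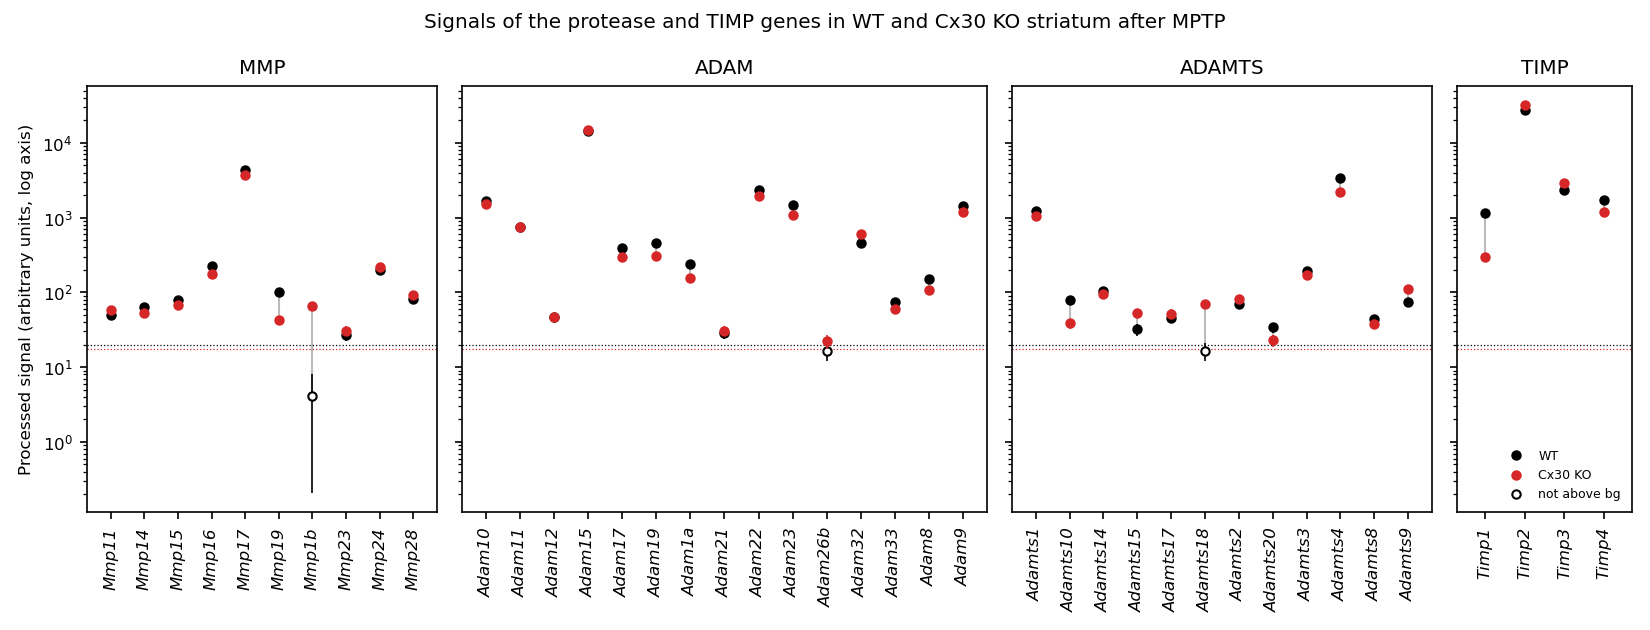
Processed signal (log axis, arbitrary units) of each of the 41 detected genes in WT (black) and Cx30 KO (red), by family, with the scanner error as a bar; open points were not well above background, and dotted lines give the lowest signal that counted on each array (19.8 in WT, 17.4 in Cx30 KO). The points of most genes nearly coincide, and the widest gaps are those of Timp1, Mmp19, Mmp1b, Adamts10 and Adamts18.

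Proteases and inhibitors had similar medians. The 37 detected MMPs, ADAMs and ADAMTSs had a median of −0.11, with 21 lower and 16 higher, and the 4 TIMPs had a median of −0.08, with 2 lower and 2 higher. By family the medians were 0.02 for MMPs, −0.20 for ADAMs and −0.09 for ADAMTSs. The TIMP mean of −0.42 was lower than its median because of Timp1.

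The criteria were met by 2 members that were lower in Cx30 KO, Timp1 and Mmp19, and 2 that were higher, Mmp1b and Adamts18. Among all detected genes 3.39% met them in the lower direction and 2.39% in the higher direction. In either direction this was 4 of 41 members, 9.76%, against 5.78% of all detected genes, a share that rests on 4 genes. Of these, Mmp1b and Adamts18 entered the count through the Cx30 KO array alone, where they were high. With detection required on both arrays, 2 of 38 members were lower and 0 higher, against 503 lower and 332 higher of 20310 genes. Counting ratios alone, 3 members had a ratio of at most 0.66, 7.32% against 6.21% of all detected genes, and 4 had a ratio of at least 1.5, 9.76% against 7.22%. Detection in Cx30 KO only was found for 3 of the 41 members, 7.32% against 5.04%, and detection in WT only for 0 of 41 against 2.69%. Each of these shares rests on 4 genes or fewer, and the shares of all genes give the background for them.

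**Figure D2:**
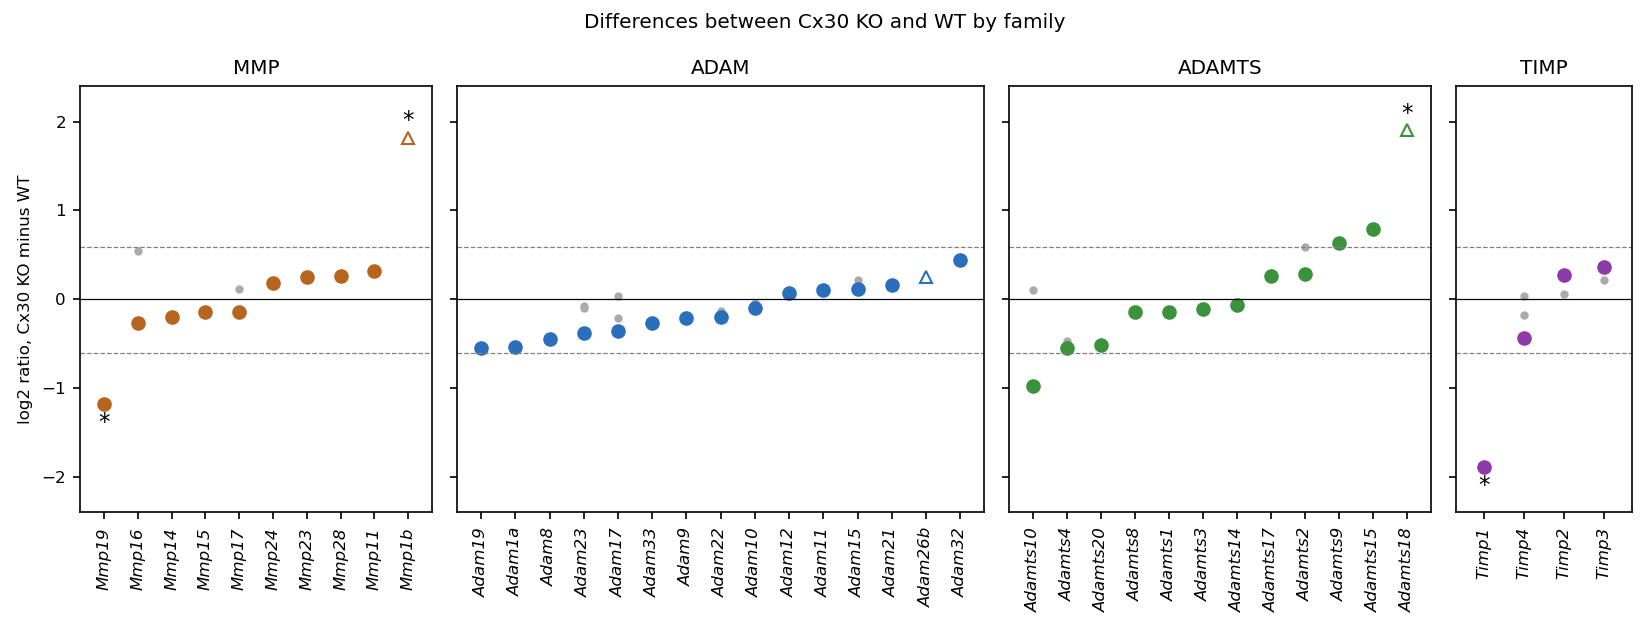
Log2 ratio of Cx30 KO minus WT for each detected gene, sorted within its family (coloured points), with the gene's other probes that were well above background on both arrays in grey; open triangles are bounds for genes detected in Cx30 KO only, dashed lines mark ratios of 0.66 and 1.5, and asterisks mark genes that met the study's criteria. Timp1 lies lowest at −1.89, and for Mmp16, Mmp17, Adam17, Adamts10 and Timp4 coloured and grey points fall on both sides of 0.

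Among the TIMPs, Timp1 alone met the criteria. Timp1, the secreted inhibitor that is induced in reactive glia, gave 1161 ± 116 in WT and 298 ± 30.1 in Cx30 KO. This was 3.71-fold lower in Cx30 KO, or −1.89 on the log2 scale with a Z-score of −5.91. Of 8 general astrocyte markers 5 lay lower in Cx30 KO (median −0.12), and their part in the Timp1 difference, like that of the microglia markers given above, was not tested. From its microarrays the paper reports lower expression of pan-reactive astrocyte genes, Gfap among them, in Cx30 KO after MPTP. The part of those genes in the Timp1 difference was not tested either. The array has 1 probe for Timp1, at chrX:20451675-20451733 on the plus strand of mm9, and because the result rests on that probe its sequence is shown. The 60 bases hold a single reading frame without a stop codon, and whether it is translated could not be checked here.
Timp1 probe: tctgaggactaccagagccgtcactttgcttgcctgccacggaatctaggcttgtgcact

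The other TIMPs differed by less. Timp2, which inhibits MMPs and also helps to activate MMP2 at the cell surface, had 27536 ± 2754 in WT and 31678 ± 3168 in Cx30 KO, for a ratio of 0.27 on the log2 scale. Its other probe gave 0.06, 1 value just above and 1 well below the between-probe SD. Timp3, the inhibitor that stays bound to the matrix, had 2373 ± 237 in WT and 2913 ± 291 in Cx30 KO, for a ratio of 0.37 on the log2 scale, and a further probe gave 0.22. Timp4, which is enriched in brain and heart, had 1701 ± 170 in WT and 1201 ± 120 in Cx30 KO, for a ratio of −0.43 on the log2 scale. Of its other probes 1 gave −0.18, with 1512 in WT and 1268 in Cx30 KO, and 1 gave 0.03, so the size of the Timp4 difference depended on the probe. The probe at 0.03 was dim, with 44.4 in WT and 43.3 in Cx30 KO, and is listed on the array under a different transcript. Z-scores of Timp2, Timp3 and Timp4 were 1.32, 1.36 and −1.5, and none met the criteria. Reck, a membrane-anchored inhibitor of several MMPs, had 271 ± 27.6 in WT and 273 ± 27.7 in Cx30 KO.

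MMPs were split between membrane-type enzymes that were detected and secreted enzymes that mostly were not. Of 6 membrane-type MMPs, 5 were detected, 4 lower and 1 higher in Cx30 KO with a median of −0.15, and none met the criteria. Mmp14, the membrane-type enzyme that activates pro-MMP2, had 64.7 ± 8.36 in WT and 53.6 ± 7.11 in Cx30 KO, for a ratio of −0.20 on the log2 scale. It lies on chromosome 14, 2.68 Mb from Gjb6 in mm9. The other members on that chromosome, Adam2, Adam7 and Adam28, were not well above background. Mmp17, a membrane enzyme held by a lipid anchor, had 4302 ± 430 in WT and 3712 ± 371 in Cx30 KO, for a ratio of −0.14 on the log2 scale, while its other probe gave 0.11. Mmp24, a membrane-type enzyme of neurons, had 199 ± 20.6 in WT and 216 ± 22.1 in Cx30 KO, for a ratio of 0.19 on the log2 scale. These differences were all smaller than the between-probe SD.

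Mmp16, another membrane-type enzyme, gave opposite directions with its probes. The brighter probe, at chr4:18044545-18044604 of mm9, had 226 ± 23.2 in WT and 179 ± 18.5 in Cx30 KO, for a ratio of −0.26 on the log2 scale. The dimmer probe, at chr4:17914830-17923362, had 59.7 ± 7.29 in WT and 82.8 ± 9.06 in Cx30 KO, for a ratio of 0.54 on the log2 scale. Both probes are shown because they read different places in the transcript. The dimmer probe spans 8533 bases of the genome with 60 bases and so crosses a splice junction. The brighter probe lies in a single block and ends in TAA, in capitals. These letters are a stop triplet in the 1 reading frame that is open up to them. Whether that frame is translated could not be checked here. A further probe was not well above background on either array.
Mmp16, dimmer probe: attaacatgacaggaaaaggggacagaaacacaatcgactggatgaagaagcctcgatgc
Mmp16, brighter probe: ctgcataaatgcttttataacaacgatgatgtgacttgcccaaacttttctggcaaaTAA

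The secreted MMP that met the criteria in the lower direction was Mmp19, an enzyme that cuts basement membrane proteins. It had 102 ± 11.1 in WT and 43.0 ± 5.66 in Cx30 KO, 2.27-fold lower, or −1.18 on the log2 scale, with a Z-score of −2.62. With normexp background correction the log2 value was −0.62. The signal came from the probe at chr10:128237761-128237820 of mm9, and its other probe was not well above background on either array. Mmp11, Mmp23 and Mmp28 were also detected, with log2 ratios of 0.32, 0.25 and 0.26. The gelatinases Mmp2 and Mmp9, which cut denatured collagen and basement membrane and are the MMPs measured most often after brain injury, were not well above background on either array. Their highest signals were 18.2 in WT and 8.41 in Cx30 KO for Mmp2 and 4.81 and 4.31 for Mmp9. At this sensitivity no difference in the gelatinases was detectable.

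Collagenases, most stromelysins and the macrophage elastase gene Mmp12 form a cluster of 10 genes on mouse chromosome 9, and the cluster was near background on both arrays. Its 14 probes lie between 7282762 and 7699535 of mm9. In WT 0 of the 10 genes were well above background, and in Cx30 KO only Mmp1b was. Mmp3, stromelysin 1, had 4.5 in WT and 4.0 in Cx30 KO, and Mmp12 had at most 5.25 and 4.71, while the brightest undetected gene of the cluster reached 15.8. All these lie under the lowest signals that counted.

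Mmp1b, a mouse homologue of interstitial collagenase, was the exception. Its brighter probe, at chr9:7367842-7367901 of mm9 on the minus strand, had 4.14 ± 4.15 in WT and 66.4 ± 7.57 in Cx30 KO, at least 3.53-fold higher. The other probe, at chr9:7368580-7368639, had 4.33 ± 4.34 in WT and 24.3 ± 4.53 in Cx30 KO, at least 1.29-fold higher. Both probes were thus seen in Cx30 KO and not in WT. That Mmp1b met the criteria rests on a WT signal that was not well above background, and with normexp background correction its log2 ratio was 1.03. Mmp1b has a close paralogue, Mmp1a, and whether the paralogue's transcript binds these probes could not be checked here. The probe named for Mmp1a had 5.04 in WT and 4.45 in Cx30 KO, which is not well above background. The dimmer Mmp1b probe is shown as the item on which the second reading rests. It has a reading frame without a stop codon, and whether that frame is translated could not be checked either.
Mmp1b, dimmer probe: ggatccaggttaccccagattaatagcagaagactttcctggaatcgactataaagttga

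AP-1, the dimer of FOS and JUN family proteins that is known to drive several MMP genes, binds TGAGTCA and TGACTCA. The letters searched for here, TGANTCA, allow any middle base, and those of Mmp20, Adam20 and Adam25 read TGAATCA. RefSeq windows of 300 bases, from 250 before to 50 after the start in GRCm38.p6, were found for 49 of the 79 members and searched for these letters on both strands, which for a palindrome are the same. They were present in 13 of the 49, 26.5%, against 2425 of 27025 windows of all genes, 8.97%. In the chromosome 9 cluster 8 of 10 windows held them and among the other MMP genes 0 of 8 did. By detection, 2 of 29 detected members, Adam19 and Mmp1b, and 11 of 20 undetected members had them. The letters were thus more frequent in the cluster that was near background on both arrays than among all genes. Short windows around them are shown for Mmp1b, which was detected in Cx30 KO, and for 5 cluster genes that were not, with the AP-1 letters in capitals.
Mmp1b, chr9:7388102-7388130, minus strand: gttacaaagccTGAGTCAtatagcctctg
Mmp1a, chr9:7464057-7464085, plus strand: gttgtcaaccaTGAGTCAcatagcctctg
Mmp3, chr9:7445765-7445793, plus strand: ggaagcaattaTGAGTCAgttttcgggtg
Mmp12, chr9:7347319-7347347, plus strand: gacatcaacagTGAGTCAgatagaggatt
Mmp13, chr9:7272468-7272496, plus strand: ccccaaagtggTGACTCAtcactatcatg
Mmp10, chr9:7502268-7502296, plus strand: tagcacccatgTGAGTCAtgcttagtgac

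The short windows of Mmp1a and Mmp1b share 23 of 29 bases, and those of Adam20 and Adam25 share 29 of 29. Matches in such related genes are not separate occurrences. Across the 8 cluster genes the first base of the letters lay between 35 and 95 bases before the start. Timp1 holds no TGANTCA in its window. It holds TGAGTAA, a variant of the letters that was looked up after the sequence had been seen, at 27 bases after the start, as do 836 of 27025 windows, 3.09%. A match of letters shows neither binding nor use of a site.
Timp1, chrX:20870181-20870209, plus strand: cggtgggtggaTGAGTAAtgcgtccagga

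**Figure D3:**
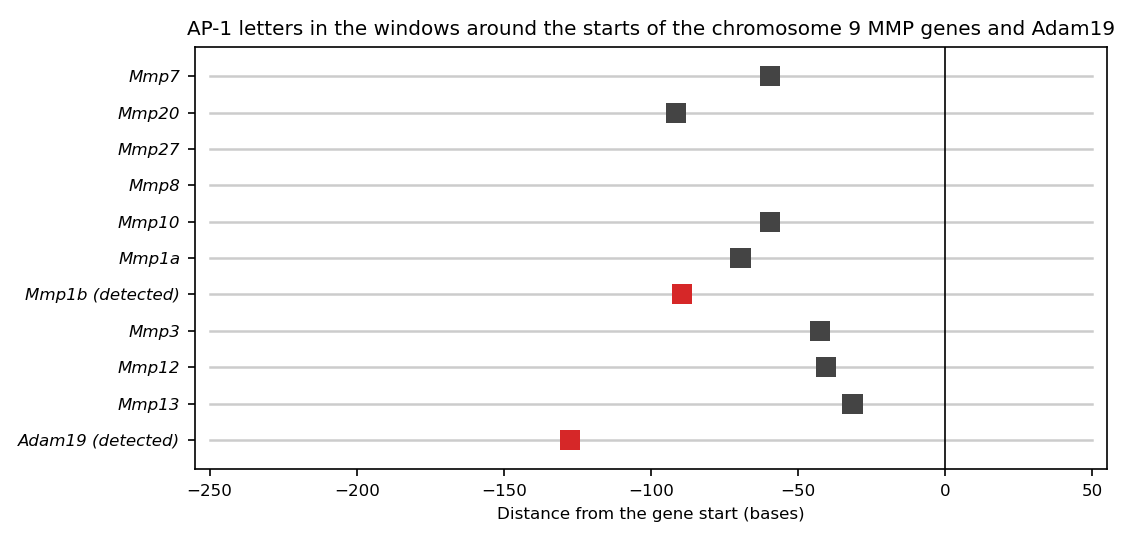
Position of the letters TGANTCA relative to the gene start (bases) in the 300-base windows of the 10 MMP genes on chromosome 9 and of Adam19; grey lines are the windows, red bars mark genes that were detected and dark bars genes that were not. In 8 of the 10 cluster genes the letters lie between 35 and 95 bases before the start, and Mmp8 and Mmp27 have none.

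ADAMs were the most numerous family and had the narrowest range of ratios. Of 33 genes, 15 were detected, 9 lower and 6 higher in Cx30 KO, with log2 ratios from −0.55 to 0.49, and none met the criteria. The 18 undetected ADAMs did not exceed a signal of 22.2 on either array, and many of them, including 10 of 13 on chromosome 8, belong to the group of ADAMs known mainly from testis. Adam26b, of that group, was seen in Cx30 KO only, with 16.7 ± 4.79 in WT and 22.3 ± 4.57 in Cx30 KO, values whose errors overlap.

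Of the ADAMs known to shed membrane proteins, Adam10 and Adam17 had lower values and Adam15 a slightly higher one. Adam10, which releases the ectodomains of APP and Notch1, had 1685 ± 169 in WT and 1499 ± 150 in Cx30 KO, for a ratio of −0.10 on the log2 scale, and its other probe gave −0.04. Adam17, which releases TNF and ligands of the EGF receptor, had 398 ± 40.1 in WT and 295 ± 29.8 in Cx30 KO, for a ratio of −0.36 on the log2 scale, while its other probes gave −0.22 and 0.04. Adam15, found in vessels and neurons, had 14236 ± 1424 in WT and 14681 ± 1468 in Cx30 KO, and its 3 probes gave between 0.12 and 0.22. Each of these genes had at least 1 probe within the between-probe SD.

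Adam22 and Adam23, which lack protease activity and act as neuronal receptors of the LGI proteins at synapses, were both lower. Adam22 had 2341 ± 234 in WT and 1943 ± 194 in Cx30 KO, for a ratio of −0.20 on the log2 scale, with −0.14 from its other detected probe. Adam23 had 1487 ± 149 in WT and 1088 ± 109 in Cx30 KO, for a ratio of −0.38 on the log2 scale, with −0.08 and −0.10 from its other detected probes. The signs of all their detected probes were the same, but 1 of them alone, that of −0.38, exceeded the between-probe SD. The lowest ratios of the family were those of Adam19, −0.55, and Adam1a, −0.53, and the highest on both arrays was that of Adam32, 0.44.

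ADAMTSs had the widest range after the MMPs. Of the 7 proteoglycanases, which cut aggrecan, brevican and versican, 6 were detected, 4 lower and 2 higher, with a median of −0.14, and none met the criteria. Adamts4, a proteoglycanase made by oligodendrocytes and astrocytes, came nearest. It had 3377 ± 338 in WT and 2190 ± 219 in Cx30 KO, a ratio of 0.681 with −0.55 on the log2 scale and a Z-score of −1.98. Its other 2 probes gave −0.47, with 336 in WT and 231 in Cx30 KO, and −0.51, with 388 and 260, so all 3 probes were lower by a similar amount. The oligodendrocyte markers, lower in 7 of 7 cases with a median of −0.73, moved the same way, and their part in the Adamts4 difference was not tested.

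The other proteoglycanases went both ways. Adamts1, which is induced by injury, had 1211 ± 121 in WT and 1046 ± 105 in Cx30 KO, for a ratio of −0.14 on the log2 scale. Adamts9 had 74.5 ± 8.94 in WT and 110 ± 11.8 in Cx30 KO, for a ratio of 0.63 on the log2 scale, and Adamts15 had 31.9 ± 5.91 and 52.6 ± 6.89, a log2 ratio of 0.79. Both passed the ratio of 1.5 but had Z-scores of 1.37 and 1.33. With normexp background correction the log2 ratio of Adamts9 was 0.32. Adamts5, an aggrecanase first known from cartilage, was not well above background, with at most 16.4 in WT and 12 in Cx30 KO.

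Procollagen N-proteinases, which trim fibrillar collagens, were detected in 3 of 3 cases, with log2 ratios of 0.28 for Adamts2, −0.11 for Adamts3 and −0.07 for Adamts14. Adamts3 had 194 ± 19.8 in WT and 170 ± 17.4 in Cx30 KO, and its second probe was seen in Cx30 KO only at 18.2, too dim to bound a fold. The remaining ADAMTSs held both a gene with discordant probes and a gene that met the criteria. Adamts10, which binds fibrillin microfibrils, had 80.2 ± 9.48 in WT and 38.8 ± 5.92 in Cx30 KO, for a ratio of −0.97 on the log2 scale with a Z-score of −1.90, but its other detected probe gave 0.11. That other probe was dim, with 32.6 in WT and 33.3 in Cx30 KO, and is listed on the array under a different transcript. The difference was therefore seen by 1 of 2 detected probes, which may not read the same transcript, and it was −0.38 with normexp background correction.

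Adamts18, an ADAMTS with few known substrates, was higher in Cx30 KO. Its brighter probe, at chr8:116222720-116222779 of mm9 on the minus strand, had 16.6 ± 4.33 in WT and 70.2 ± 7.85 in Cx30 KO, at least 3.73-fold higher. Another probe, at chr8:116221329-116221388, had 16.0 ± 5.0 in WT and 46.8 ± 6.29 in Cx30 KO, at least 2.49-fold higher. Its other probes were not well above background on either array. As for Mmp1b, the WT side is a bound, and normexp background correction gave a log2 ratio of 0.77. The cortical excitatory neuron markers were likewise higher in Cx30 KO in 6 of 6 cases, with Tbr1 at 78.6 ± 9.47 in WT and 423 ± 42.6 in Cx30 KO and Neurod2 at 49.0 ± 6.43 and 594 ± 59.5. Their median log2 ratio was 3.24, or 2.14 with genes seen on 1 array at their bound, and their part in the Adamts18 and Mmp1b differences was not tested.

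Genes that work with these proteases were counted from a list of activators, inhibitors and partners. It was chosen, like the lists that follow, with earlier results of these data known, so its shares describe the listed genes only. Of 37 such genes 31 were detected, 18 lower and 13 higher, with a median of −0.09. The criteria were met by 4 in the lower direction, 12.9% against 3.39% of all detected genes, and by 1 in the higher direction, 3.23% against 2.39%. A2m, the plasma protease inhibitor that traps metalloproteases among others, was seen in WT only, with 72.8 ± 8.78 in WT and 14.9 ± 4.63 in Cx30 KO, at least 3.99-fold lower in Cx30 KO. Adamtsl2, a relative of the ADAMTSs without a protease domain, was also seen in WT only, with 77.9 ± 8.94 and 14.8 ± 4.15, at least 4.27-fold lower. Adamtsl4, of the same group, had 398 ± 40.0 in WT and 230 ± 23.3 in Cx30 KO, for a ratio of −0.72 on the log2 scale. Lgi2, a secreted partner of Adam22 and Adam23, had a log2 ratio of −0.61. Pcsk5, a proprotein convertase, was the one that was higher, with 31.1 ± 6.13 in WT and 71.0 ± 8.52 in Cx30 KO. The tissue plasminogen activator gene Plat and the shedding cofactor gene Rhbdf2 had log2 ratios of −0.19 and 0.27, neither meeting the criteria.

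Substrates of these enzymes lay close to 0. Of 45 matrix and membrane proteins on the list, 42 were detected, 26 lower and 16 higher, with a median of −0.10, and 1 met the criteria in the lower direction, 2.38% against 3.39% of all detected genes, and 0 in the higher direction, against 2.39%. The brain proteoglycans brevican and neurocan, cut by Adamts4, had log2 ratios of −0.14 for Bcan and −0.37 for Ncan, and aggrecan and versican had 0.38 for Acan and 0.04 for Vcan. The substrate that met the criteria was Cd44, the hyaluronan receptor shed by ADAM10 and MMP14, with 545 ± 54.7 in WT and 95.4 ± 10.3 in Cx30 KO, for a ratio of −2.44 on the log2 scale.

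The next list held signals that induce Timp1 and several MMPs in other settings, with some of their receptors and feedback inhibitors. Its median was lower than that of the proteases themselves, and its part in the Timp1 difference was not tested. Of 23 genes of the AP-1, STAT3 and inflammatory list 21 were detected, 14 lower and 7 higher, with a median of −0.27, and 6 met the criteria in the lower direction, 28.6% against 3.39% of all detected genes, and 0 in the higher direction, against 2.39%. Because the list was chosen with earlier results of these data known, these shares describe the listed genes only. The AP-1 subunits Fosl1 and Fosl2 had log2 ratios of −1.12 and −0.94, while Fos had −0.43, Jun −0.19, Junb −0.09, Jund 0.17 and Fosb 0.20, so the subunits went both ways and only Fosl1 and Fosl2 met the criteria. Of the interleukin 6 family and its pathway, Il11 had 125 ± 13.3 in WT and 21.4 ± 4.48 in Cx30 KO, for a ratio of −2.48 on the log2 scale. That Cx30 KO signal lay near 17.4, the lowest that counted on the array, so the size of the ratio is uncertain. The oncostatin M receptor gene Osmr had −0.90, the feedback inhibitor gene Socs3 had −0.74 and Cebpd had −0.70. Oncostatin M itself went the other way, with 38.1 ± 5.88 for Osm in WT and 59.2 ± 7.12 in Cx30 KO, or 0.70 on the log2 scale, the highest value of the list, without meeting the criteria. Stat3 had −0.18, and Il6 and Il1b were not well above background on either array. Of the astrocyte markers 1 of 8 met the criteria in the lower direction, 12.5% against 3.39% of all detected genes. This was the water channel gene Aqp4 at −0.95. The 8 markers were lower in 5 cases and higher in 3, with a median of −0.12.

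**Figure D4:**
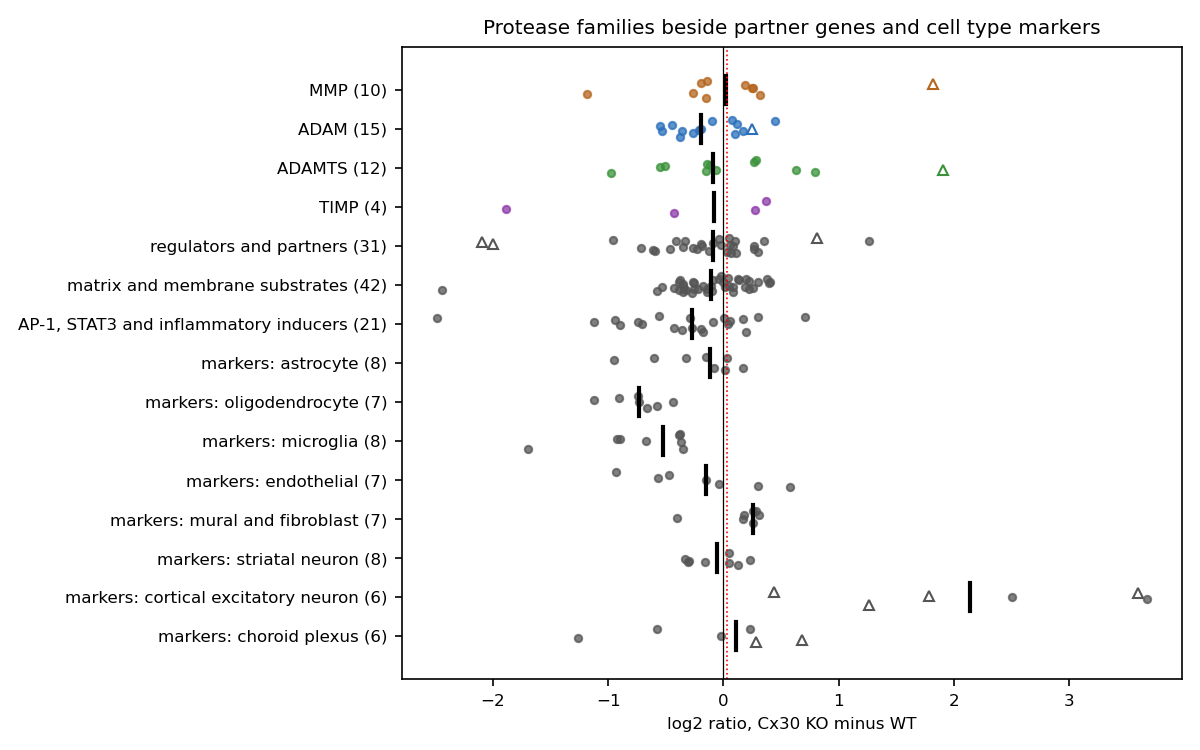
Log2 ratios of Cx30 KO minus WT for the genes of the 4 families (coloured), the partner, substrate and inducer lists and the cell type markers (grey), with the number of detected genes in brackets; black bars are medians, triangles are genes seen on 1 array plotted at their bound, the thin black line is 0 and the red dotted line is the median of all genes, 0.03. The 4 families centre near 0, while oligodendrocyte and microglia markers lie below it and cortical excitatory neuron markers above it.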

How the data were processed

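RNA of each pool was labelled with Cy3 and hybridised to a 60-mer array. The authors' scanner software subtracted the background and removed trends within each array; the deposited processed signals are linear intensities that were not normalised between arrays. The deposited file headers give version 10.7.1.1 of Agilent Feature Extraction and the submitters' processing notes 9.5.1.1. The authors also deposited a table of 1 intensity per probe and array, which matched the processed signals after quantile normalisation to within 1% for 99.991% of values.

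Control spots and outlier-flagged spots (48 in WT, 52 in Cx30 KO, of 62976; 0 of member probes) were left out, and each probe's spots were averaged as log2 intensity minus the array's 75th percentile. Detection of a probe required the software's well-above-background flag on 50% or more of its spots, which 32019 probes had in WT and 32961 in Cx30 KO; 0 were saturated. The bound of a gene seen on 1 array uses the higher of the lowest signal that counted and the gene's own dim signal. Precision is limited by the number of arrays. The Z-score code was tested on simulated data. Members and gene lists were chosen with earlier results of these data known. Genes named with values were those meeting the criteria, those with a bound of 1.5-fold or more, all TIMPs, the 3 with the brightest probes of each protease family (a choice of names only), a list of commonly studied members and members with discordant probes; others were chosen after their values were seen. Alternatives were quantile normalisation, median scaling, normexp with an offset of 50 (limma 3.58.1 in R 4.3.3), the authors' table, no filter on dim probes, detection on both arrays, averaging all probes per gene, other Z-score references, ratio limits of 2 and 0.5, and ratios at their bound. Figures and counts were made in Python 3.11.15. Probe positions are mm9, and promoter windows are RefSeq, GRCm38.p6.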

Additional observations from a re-analysis of the deposited data

How the results depend on the processing

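Timp1 and Mmp19 were the 2 members lower in Cx30 KO under each alternative, and Mmp1b and Adamts18 the 2 that were higher, except that 0 were higher when detection on both arrays was required, since neither was detected in WT. Timp1 ranged from −1.94 to −1.70, Mmp19 from −1.23 to −0.62 and Adamts10 from −1.02 to −0.38. Mmp1b ranged from 1.03 to 4.10 and Adamts18 from 0.77 to 2.16, lowest with normexp background correction. Of 165 alternative values of the named genes, 46 equalled the reported value because the detection setting or probe mean left that gene as it was, 99 moved by less than the between-probe SD of 0.26 and 20 by more. Averaging all probes turned Mmp16 to 0.14 and Adamts3 to 0.44. Family medians ranged from −0.14 to 0.16 for MMPs, −0.24 to −0.10 for ADAMs, −0.14 to 0.10 for ADAMTSs and −0.13 to −0.01 for TIMPs. The signs for MMPs and ADAMTSs thus changed with the setting, and those for ADAMs and TIMPs stayed negative. All these medians were smaller in size than the between-probe SD, and 1 array for each genotype settles no sign. The proteases' median lay below that of the TIMPs by 0.03, and above it by less than 0.01 when all probes of a gene were averaged. Over all genes, 746 lower and 525 higher calls became 455 and 502 with a Z-score over all probes, 427 and 339 with ratio limits of 2 and 0.5, and 503 and 332 with detection on both arrays. No paired analysis was possible because each genotype has 1 array, and for the same reason no replicate could be left out. Dim probes limit what could be seen: 38 of 79 members had no probe well above background.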
